A study of Mus musculus with 10 samples.

Results

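Mitotic and cell cycle genes were followed in the RNA of 10 mouse melanoma tumours, 5 from exercised and 5 from non-exercised mice, with 1 array per tumour. The set was a list of 39 genes that mark cells in S phase, G2 or mitosis, or that drive entry into them. A gene was measured if an array probe set carried its symbol and no other, which held for 38 of the 39, out of 19938 genes measured in all. Ccnb1, which encodes cyclin B1, was not analysed here. The 38 genes had 39 such probe sets, and Top2a was the gene with more than 1. All animals were male per the labels, and the groups are named Exercise and non-Exercise. The series title speaks of voluntary exercise. Mouse strain, age, the tumour line and the length of exercise are stated in none of the sources used here. Each array carries a number, which names it below, but nothing says that a number is an animal. The p-values therefore measure the spread between these tumour samples.

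A dividing cell passes through G1, S phase, G2 and mitosis. D-type and E-type cyclins release E2F transcription factors at the start of S phase. Cyclin A2 and cyclins B1 and B2 then activate the kinase CDK1, which drives the cell into mitosis. Many mitotic genes are transcribed in the same window, late in the cycle, under FOXM1 and the MuvB complex. Their summed RNA in a tissue is therefore widely read as a proliferation index. In whole-tumour RNA, fewer cycling cells and less of these transcripts per cycling cell cannot be told apart.

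Melanocytic markers were high in both groups: the mean level of 8 such genes, among them Mlana and Tyr, lay between 13.00 and 13.11 in the exercise arrays and between 13.00 and 13.12 in the others. All levels are deposited PLIER values taken as log2, quantile normalized here. Across genes, pairs of exercise arrays correlated at 0.976 to 0.990 and pairs of non-exercise arrays at 0.987 to 0.996. Exercise arrays 306, 309 and 310 stood apart by their hepatocyte transcripts, with the albumin gene Alb at 12.77, 12.97 and 12.28 against 6.84 to 9.22 in the other 7. Of 14 measured leukocyte markers, 8 rose and 0 fell, and their mean level ran from 8.67 to 9.87 in the exercise arrays and from 8.56 to 8.80 in the non-exercise arrays. Of 8 fibroblast markers, 6 rose and 0 fell (10.18 to 11.57 against 9.60 to 10.46). The part of these other cells in the results below was not tested.

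Transcripts of the mitotic programme lay at nearly the same level in both groups, and the 4 genes that passed were higher in the exercise tumours. Of the 38 genes, 4 rose (Prc1, Espl1, Kif23 and Foxm1) and 0 fell at a limma adjusted p under 0.05 over all genes. Among all 19938 genes, 6.35% rose and 10.6% fell by this adjusted rule. At an unadjusted p under 0.05 the counts of the 38 were 7 (18.4%) higher and 1 (2.63%) lower, against 11.2% and 18% of all genes. The median log2 change, exercise minus non-exercise, was 0.00 over the 38 genes and -0.02 over all genes. Positive changes numbered 19 and negative changes 19. With arrays centred on their medians instead of quantile normalized they numbered 13 and 25, and the median was -0.077 against -0.051 over all genes. The changes ran from -0.31 for Ccne2 to 0.28 for Espl1, and 12.6% of all genes had a change larger in size than any of the 38. The groups did not overlap for the same 4 genes, while complete separation upwards was found for 3.74% of all genes and downwards for 8.33%.

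With 5 arrays per group, the standard error (SE) of the log2 change lay between 0.05 and 0.11 over the 38 genes. For 33 of the 34 genes that did not pass, the 95% interval of the change lay within 0.5 in either direction. The exception was Ccne2, whose interval ran from -0.55 to -0.08. Larger shifts than these bounds were thus not seen, while a gene that did not pass may still differ by less.

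**Figure D1:**
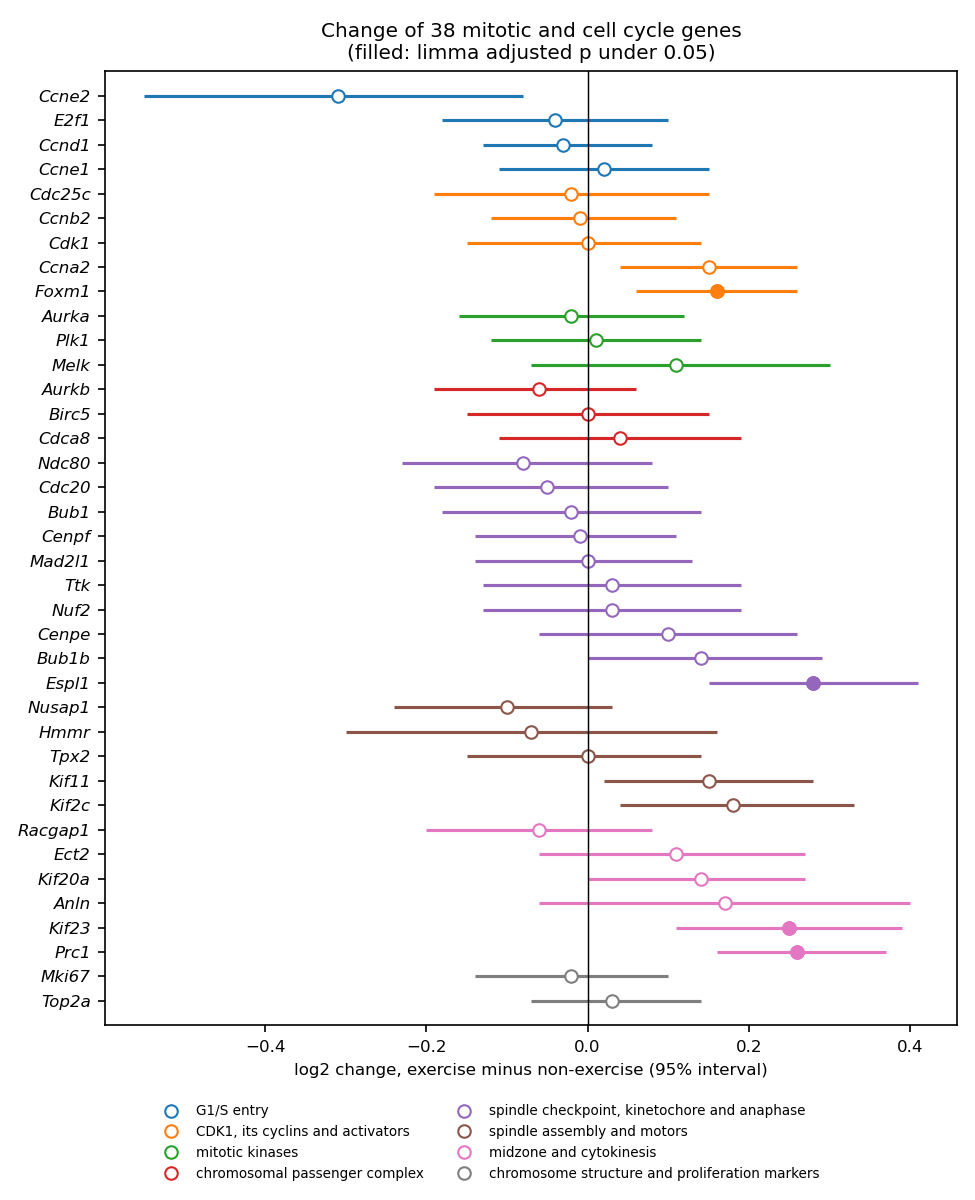
Log2 change of each of the 38 genes (x axis, exercise minus non-exercise) with its 95% interval, coloured by role, n = 5 arrays per group. Filled points are the 4 genes with a limma adjusted p under 0.05, all to the right of 0, from 0.16 for Foxm1 to 0.28 for Espl1.

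The genes of S phase entry came first in order of action. Of 4 measured, 0 passed the limma test in either direction. At an unadjusted p under 0.05 the counts were 0 higher and 1 lower, where 11.2% and 18% of all genes lay. Ccne2, which encodes cyclin E2, an activator of CDK2, lay at 9.83, 9.71, 9.34, 9.28 and 9.69 in exercise arrays 300, 301, 306, 309 and 310. It lay at 9.86, 10.05, 9.99, 9.75 and 9.75 in non-exercise arrays 326, 327, 329, 330 and 331. Arrays 306 and 309 were the lowest of all, and array 300 lay inside the non-exercise range, so the groups overlapped. Its log2 change was -0.31 ± 0.11 (SE; limma adjusted p = 0.0665). Ccne2 passed as lower in 3 of the 18 alternatives. With all 10 arrays kept, these were centring on array medians (-0.37, limma adjusted p = 0.0381) and array weights (-0.34, limma adjusted p = 0.0283). The other was leaving out exercise array 300 (-0.38, limma adjusted p = 0.0323). Over all alternatives the adjusted p ran from 0.0283 to 0.531. Without arrays 306, 309 and 310, which held the hepatocyte transcripts, the change of Ccne2 was -0.11.

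Ccne1, the gene of the sister cyclin E1, gave 11.73 ± 0.12 with and 11.71 ± 0.07 without exercise (SD, n = 5 each). Ccnd1, which encodes the growth-factor-responsive cyclin D1, gave 12.77 ± 0.10 and 12.80 ± 0.05 (SD, n = 5 each). E2f1, an E2F factor that activates S phase genes, gave 11.39 ± 0.12 and 11.43 ± 0.10 (SD, n = 5 each). The groups overlapped for all 3, with limma adjusted p from 0.778 to 0.887.

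CDK1 and the cyclins that bind it showed no common shift. Cdk1 itself lay at 12.92, 12.72, 12.68, 12.84 and 12.53 in exercise arrays 300, 301, 306, 309 and 310, and between 12.60 and 12.82 in the non-exercise arrays. The exercise values thus spanned the whole non-exercise range, and the 95% interval of the change was -0.15 to 0.14 (limma adjusted p = 0.994). Ccnb2, which encodes cyclin B2, gave 12.92 ± 0.10 against 12.93 ± 0.09 (SD, n = 5 each; limma adjusted p = 0.974). Cdc25c, the phosphatase that activates CDK1, gave 9.93 ± 0.14 against 9.94 ± 0.11 (SD, n = 5 each; limma adjusted p = 0.938).

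Ccna2, which encodes the S and G2 phase cyclin A2, leaned towards the exercise group. It lay at 12.86, 12.69, 12.73, 12.74 and 12.57 in exercise arrays 300 to 310, in the order above, and between 12.49 and 12.64 in the non-exercise arrays. Of the exercise arrays 4 lay above all others and array 310 did not. The log2 change was 0.15 ± 0.05 and did not pass (limma adjusted p = 0.0591). Ccna2 passed in 4 of the 18 alternatives. With all arrays kept, these were leaving out dim genes (limma adjusted p = 0.0481) and array weights (limma adjusted p = 0.0121). The others left out exercise array 310 (0.19, limma adjusted p = 0.0142) or exercise arrays 306, 309 and 310. Over all alternatives the adjusted p ran from 0.0121 to 0.501.

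Foxm1, the transcription factor of the G2 and mitosis programme, was 1.11-fold higher. Its exercise values were 11.95, 11.91, 11.99, 11.93 and 11.87, and its non-exercise values 11.79, 11.70, 11.71, 11.86 and 11.82, in the order of array numbers. Every exercise array exceeded every other array, by 0.01 at the nearest point. The log2 change was 0.16 ± 0.05 (SE; limma adjusted p = 0.0345). Leaving out any of arrays 300, 306, 309, 326, 327 and 329 ended the call (limma adjusted p 0.0295 to 0.101 leaving out 1 array). It also ended in the table as deposited (adjusted p = 0.0751) and with arrays centred on medians (adjusted p = 0.394), where the change was 0.07. Fitting without the intensity trend (limma adjusted p = 0.0909) or without exercise arrays 306, 309 and 310 (limma adjusted p = 0.126) ended the call as well. In all, Foxm1 lost its call in 10 of the 18 alternatives.

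The mitotic kinases PLK1, aurora A and MELK stayed within the array spread. Plk1, whose kinase acts on centrosomes and cytokinesis, gave 12.15 ± 0.12 against 12.14 ± 0.07 (SD, n = 5 each; limma adjusted p = 0.961). Aurka, the gene of the spindle pole kinase aurora A, gave 11.45 ± 0.14 against 11.47 ± 0.05 (SD, n = 5 each; limma adjusted p = 0.876). Melk, a kinase gene expressed in proliferating cells, gave 11.17 ± 0.19 against 11.05 ± 0.13 (SD, n = 5 each; limma adjusted p = 0.458). Of these 3 genes 0 passed, where 6.35% of all genes rose and 10.6% fell. At an unadjusted p under 0.05 in limma the count was 0, where 11.2% of all genes were higher and 18% lower.

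The chromosomal passenger complex corrects faulty attachments of chromosomes to the spindle. Aurkb, its kinase subunit aurora B, gave 12.52 ± 0.11 with and 12.59 ± 0.08 without exercise (SD, n = 5 each). Birc5, which encodes the subunit survivin, gave 10.96 ± 0.15 and 10.96 ± 0.07 (SD, n = 5 each). Cdca8, which encodes borealin, ran from 9.88 to 10.16 and from 9.90 to 10.11. None of the 3 passed, with limma adjusted p from 0.550 to 0.985 and 0 at an unadjusted p under 0.05. Among all genes 6.35% rose and 10.6% fell, and 11.2% and 18% did so at the unadjusted p.

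Of 10 genes of the kinetochore, the spindle checkpoint and anaphase, Espl1 rose (10%, against 6.35% of all genes) and 9 did not pass. Espl1 encodes separase, the protease that cuts cohesin so that sister chromatids can part. Its exercise values were 10.03, 9.96, 10.08, 9.90 and 9.93, and its non-exercise values 9.63, 9.72, 9.68, 9.78 and 9.69. Every exercise array lay above every non-exercise array, and the distance between the nearest arrays, 309 and 330, exceeded the SD of either group (0.07 and 0.05). The log2 change was 0.28 ± 0.06, a 1.21-fold difference (SE; limma adjusted p = 0.00677). Espl1 passed in all 18 alternatives tried, with a change of 0.22 to 0.30.

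The other 9 genes of this role had changes from -0.08 for Ndc80 to 0.14 for Bub1b. Ndc80 and Nuf2 encode partners in the complex that grips microtubules. They gave 10.03 ± 0.13 against 10.10 ± 0.08 and 10.89 ± 0.14 against 10.86 ± 0.11 (SD, n = 5 each). Bub1, Bub1b, Ttk and Mad2l1 encode proteins of the checkpoint that holds back anaphase. Of these, Bub1b lay at 11.90, 11.71, 11.70, 11.84 and 11.52 in the exercise arrays and between 11.51 and 11.68 in the others. Thus 4 exercise arrays exceeded every non-exercise array and array 310 fell among them (limma adjusted p = 0.172). Bub1b passed without exercise array 310, at 0.20 (limma adjusted p = 0.0316), and with array weights (limma adjusted p = 0.0456). Its adjusted p ran from 0.0316 to 0.684 over all alternatives. Bub1, Ttk and Mad2l1 had limma adjusted p from 0.881 to 0.991. Cenpe, a kinetochore motor, and Cenpf, a kinetochore protein, had changes of 0.10 and -0.01. Cdc20, which activates the anaphase-promoting complex and is the target of the checkpoint, had a change of -0.05 (limma adjusted p = 0.751).

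Among 5 genes of spindle assembly, 0 passed the limma test, and 2 were higher and 0 lower at an unadjusted p under 0.05, where 11.2% and 18% of all genes lay. These 2 were the kinesin genes. Kif11 encodes the motor Eg5 that pushes spindle poles apart, and its values were 12.03, 11.89, 11.80, 11.74 and 11.77 in the exercise arrays and 11.62 to 11.80 in the others. Array 300 was the highest, the groups overlapped, and the log2 change was 0.15 ± 0.06 (limma adjusted p = 0.102). Kif2c encodes a kinesin that disassembles microtubules, and its values were 11.03, 10.94, 10.95, 10.89 and 10.72 against 10.58 to 10.79. Only array 310 of the exercise group lay inside the non-exercise range, and the change was 0.18 ± 0.07 (limma adjusted p = 0.0778). Kif2c passed at 0.23 without array 310 (limma adjusted p = 0.0219), with array weights (limma adjusted p = 0.0399) and without arrays 306, 309 and 310. Its adjusted p ran from 0.0219 to 0.400 over all alternatives.

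Tpx2, Nusap1 and Hmmr, whose products bind spindle microtubules, had changes of at most 0.10 in size. Tpx2 gave 10.95 ± 0.12 against 10.96 ± 0.10 and Nusap1 gave 10.38 ± 0.12 against 10.48 ± 0.03 (SD, n = 5 each). Hmmr had the largest exercise SD of the 38 genes, 0.27 against 0.09, with array 309 at 9.76 and array 300 at 10.48.

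Genes of the spindle midzone and of cytokinesis had the highest median change of the 8 roles. Of 6 genes, Prc1 and Kif23 rose, 0 fell and 4 did not pass, with a median log2 change of 0.15 against -0.02 over all genes. By the same rule 6.35% of all genes rose and 10.6% fell. At an unadjusted p under 0.05 limma gave 2 higher and 0 lower, where 11.2% and 18% of all genes lay. The role holds few genes, and 24 further genes of motors, spindle and cytokinesis had a median change of 0.05. Prc1 encodes the protein that bundles the antiparallel microtubules of the midzone. Its exercise values were 11.23, 11.15, 11.21, 11.16 and 11.15, and its non-exercise values 10.86, 10.95, 10.89, 10.89 and 10.99. Every exercise array exceeded every other array, and the adjusted p was the smallest of the 38 genes. The log2 change was 0.26 ± 0.05, or 1.20-fold (SE; limma adjusted p = 0.00235). Prc1 passed in all 18 alternatives, at changes from 0.18 to 0.28.

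Kif23 encodes the motor subunit of centralspindlin, which gathers at the midzone and recruits the machinery of cell separation. Its exercise values were 11.84, 11.64, 11.65, 11.53 and 11.53, and its non-exercise values 11.41, 11.33, 11.33, 11.37 and 11.53. The lowest exercise value and the value of non-exercise array 331 differed only beyond the second decimal. The log2 change was 0.25 ± 0.06 (SE; limma adjusted p = 0.0185). The call was lost without non-exercise array 327 or 329 (limma adjusted p 0.0513 and 0.0517; 0.0116 to 0.0517 leaving out 1 array) and after centring on medians (0.15, limma adjusted p = 0.122).

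Racgap1, the other subunit of centralspindlin, did not follow Kif23. It gave 11.94 ± 0.14 against 12.00 ± 0.06 (SD, n = 5 each), a change of -0.06 (limma adjusted p = 0.646). Kif20a, a midzone kinesin, lay at 11.70, 11.53, 11.56, 11.55 and 11.30 against 11.34 to 11.43 in the non-exercise arrays. Thus 4 exercise arrays lay above all others and array 310 below all others. The change of Kif20a was 0.14 ± 0.06 (limma adjusted p = 0.176). Kif20a passed without array 310, at 0.20 (limma adjusted p = 0.0197), with array weights (limma adjusted p = 0.0462) and without arrays 306, 309 and 310. Its adjusted p ran from 0.0197 to 0.713 over all alternatives. Ect2, the exchange factor that activates RhoA at the division plane, had a change of 0.11 (limma adjusted p = 0.406). Anln, which encodes the contractile ring scaffold anillin, had a change of 0.17 with an exercise SD of 0.25 (limma adjusted p = 0.344).

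Mki67 and Top2a, the usual proliferation markers, did not differ beyond the array spread. Mki67, which encodes the Ki-67 antigen that coats mitotic chromosomes, lay at 12.22, 12.11, 12.00, 12.15 and 11.97 in the exercise arrays. The non-exercise values were 12.10, 12.11, 12.17, 12.17 and 12.02. Both the highest and the lowest of the 10 values came from the exercise group. The log2 change was -0.02 ± 0.06, with a 95% interval of -0.14 to 0.10 (limma adjusted p = 0.871). Top2a, the gene of topoisomerase II alpha, which untangles sister chromatids, gave 12.09 ± 0.08 against 12.05 ± 0.05 (SD, n = 5 each; limma adjusted p = 0.744). A second and much dimmer probe set of Top2a, with a mean level of 8.34, gave a change of -0.22 ± 0.11 and did not pass (limma adjusted p = 0.225). The change of the brighter one was 0.03 ± 0.05, so the signs differed while neither passed.

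**Figure D2:**
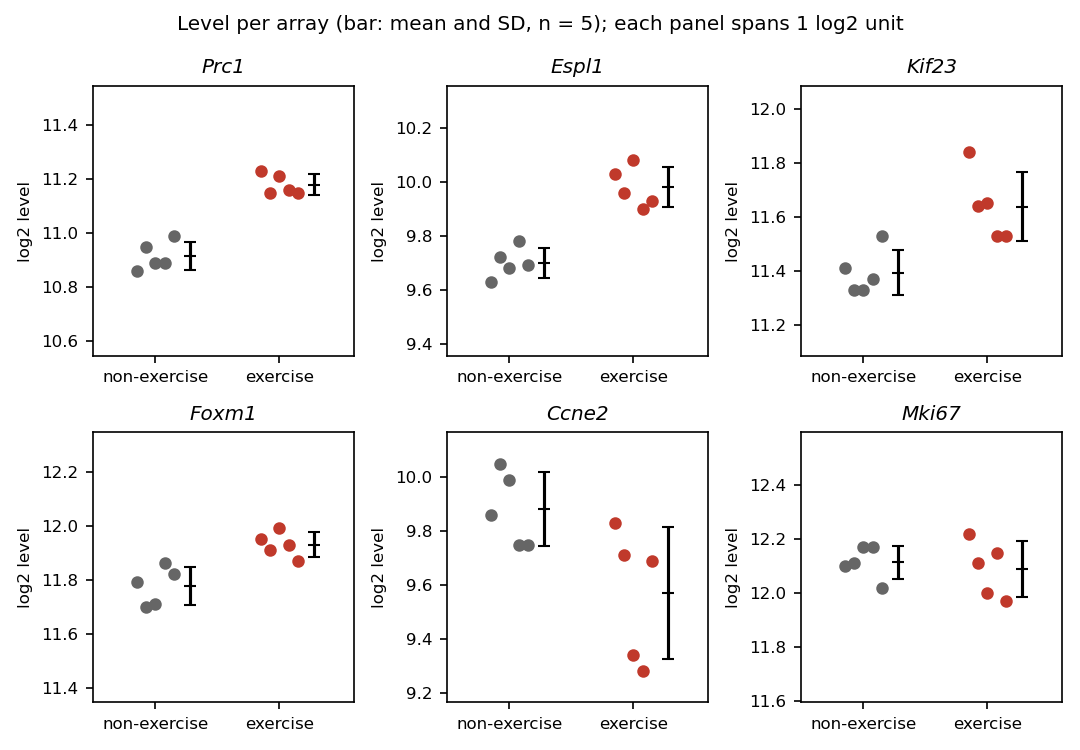
Level per array on the log2 scale (y axis) for 6 genes in the non-exercise (grey) and exercise (red) groups, with mean and SD (bar, n = 5); each panel spans 1 log2 unit. Prc1, Espl1 and Foxm1 are parted with no overlap, Kif23 meets at 11.53, Ccne2 overlaps with 4 exercise arrays below all others, and the Mki67 values of the groups interleave.

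Promoters of many of these genes hold short sequences that are known from cell cycle regulation. The search was made because textbooks describe such promoters for genes of this kind. The shares below are therefore a description and not an independent finding. The promoter of each gene was taken from RefSeq (GRCm38.p6), as 250 bases before to 50 bases after each annotated start, and 30 of the 38 genes matched, with 32 promoters. The letters TTTGAA, the cell cycle homology region (CHR) bound by MuvB, stood on either strand in 21 of 30 genes (70.0%) against 20.2% of 27025 genes with a promoter. The variant TTCGAA, which reads the same on both strands, stood in 3 (10%) against 1.8%. CCAAT, bound by NF-Y, stood on either strand in 20 (66.7%) against 41.1%. The E2F forms TTGGCGC and TTCCCGC stood in 3 (10%) and 0 genes, against 2.85% and 5.29%. No motif contains another. A match is a description of the letters and does not show binding.

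The 250 bases before the start are shown for the 2 genes with the smallest p among positive changes and the 2 with the smallest p among negative changes that had an entry, of which the last 2 did not pass. Capitals mark the motifs found, and all run 5′ to 3′ on the strand of the gene.
Prc1: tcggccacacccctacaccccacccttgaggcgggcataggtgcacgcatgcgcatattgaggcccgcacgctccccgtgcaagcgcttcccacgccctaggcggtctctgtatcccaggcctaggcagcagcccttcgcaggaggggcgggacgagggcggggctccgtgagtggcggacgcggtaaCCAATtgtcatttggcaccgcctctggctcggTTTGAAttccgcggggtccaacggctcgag
Espl1: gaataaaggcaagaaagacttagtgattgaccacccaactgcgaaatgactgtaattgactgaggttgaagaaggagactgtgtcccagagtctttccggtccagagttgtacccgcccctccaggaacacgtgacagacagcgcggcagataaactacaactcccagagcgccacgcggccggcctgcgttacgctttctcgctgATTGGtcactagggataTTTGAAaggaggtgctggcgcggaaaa
Nusap1: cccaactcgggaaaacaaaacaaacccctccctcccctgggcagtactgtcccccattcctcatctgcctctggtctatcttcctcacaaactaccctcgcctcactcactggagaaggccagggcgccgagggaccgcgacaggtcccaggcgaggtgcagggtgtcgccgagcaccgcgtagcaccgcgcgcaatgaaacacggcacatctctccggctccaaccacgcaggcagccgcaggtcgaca
Ndc80: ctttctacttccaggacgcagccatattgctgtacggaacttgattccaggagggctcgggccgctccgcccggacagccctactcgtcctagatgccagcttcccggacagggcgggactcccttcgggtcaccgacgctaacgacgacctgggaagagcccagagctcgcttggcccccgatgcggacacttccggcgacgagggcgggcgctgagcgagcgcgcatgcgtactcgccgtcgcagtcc
The Prc1 stretch (chr7:80294226-80294475, plus strand, the downstream one of 2 annotated starts) held CCAAT beginning 62 bases and TTTGAA beginning 30 bases before the start. Relative to the upstream start of Prc1, not printed, the CCAAT began 37 bases before and the TTTGAA ran across that start. The Espl1 stretch (chr15:102296043-102296292, plus strand) held the reverse of CCAAT 44 bases and TTTGAA 27 bases before its start. The stretches of Nusap1 (chr2:119618048-119618297, plus strand) and Ndc80 (chr17:71526858-71527107, minus strand) held none of the 5 motifs. Ndc80 had TTTGAA on the other strand after its start. Foxm1, the other G2 regulator that rose, had no promoter entry, while Kif23 held TTTGAA and CCAAT.

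The 38 genes differed more between arrays of the exercise group than between arrays of the other. The median SD between arrays was 0.124 in the exercise and 0.076 in the non-exercise group, against 0.138 and 0.117 over all genes. The SD was larger in the exercise group for 35 of 38 genes (92.1%), against 63.7% of all genes. Exercise array 300 held the highest value of the 10 arrays for 19 of the 38 genes and exercise array 310 the lowest for 16. Array 300 lay above the gene's own mean for 36 genes and array 310 for 10. The median over the 38 genes of the level minus the gene's mean was 0.13 in array 300 and -0.12 in array 310, and between -0.08 and 0.06 in the other 8. Over all genes the same median was 0.02 in array 300 and -0.09 in array 310. The 6 midzone and cytokinesis genes went both ways in array 310, with Kif20a and Racgap1 at their lowest there and a median of 0.04.

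Array 310 also held the highest mean levels of leukocyte (9.87), fibroblast (11.57), endothelial (10.41) and adipocyte (10.14) markers. Array 300, at the other end, lay at 9.30, 11.17, 10.30 and 9.42 for the same lists, with Alb at 7.05. The fibroblast, endothelial and adipocyte lists were highest in array 310 and next highest in array 300. Other lists did not follow this order. Leukocyte means in arrays 306 (9.38) and 309 (9.86) also lay above that of array 300. The hepatocyte mean was 7.55 in array 300 and 9.23 in array 310. The skeletal muscle mean was 9.29 in array 300 and the lowest of all arrays in array 310. The part of these markers in the mitotic levels was not tested.

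**Figure D3:**
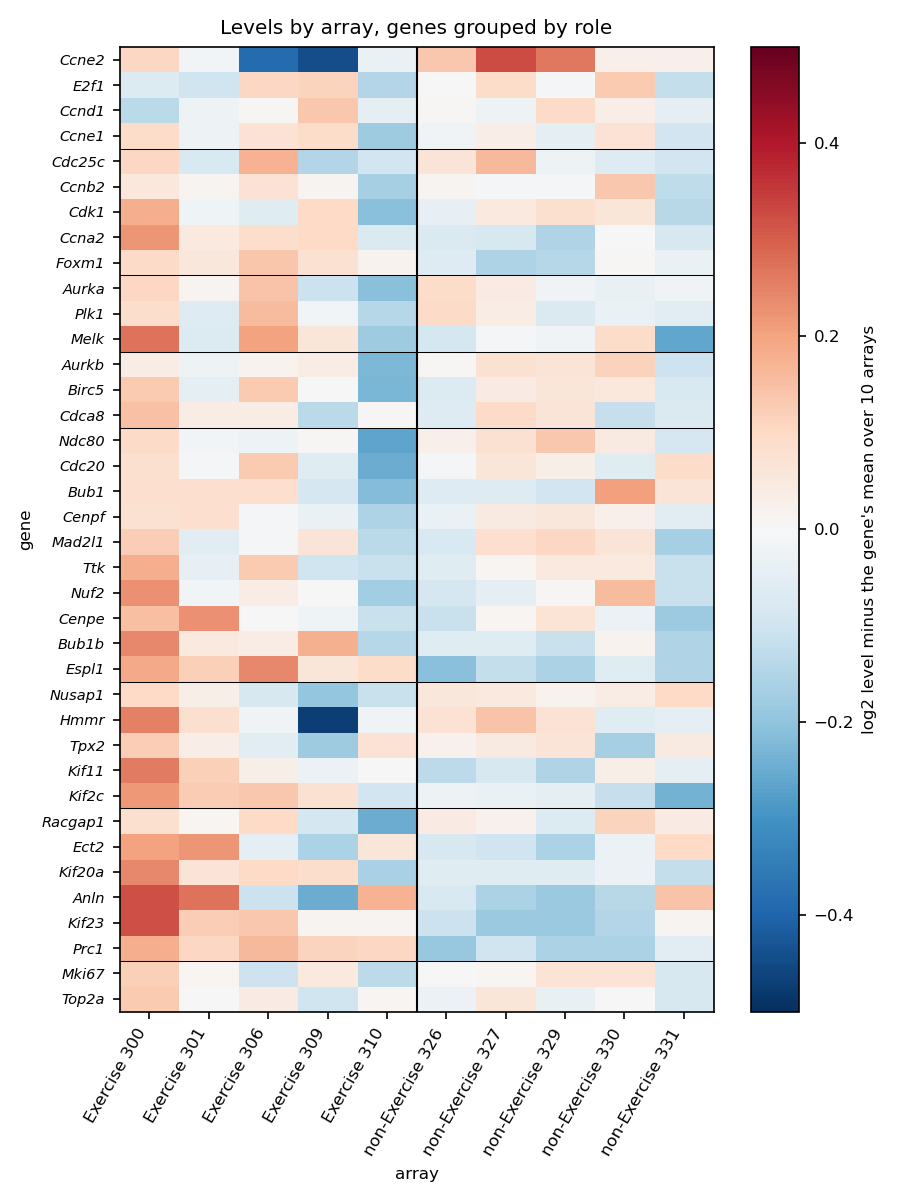
Heat map of the 38 genes (rows, grouped by role) in the 10 arrays (columns, exercise left of the line), coloured by the log2 level minus the gene's mean over the arrays. Array 300 is mostly above the mean (36 genes) and array 310 mostly below it (28 genes), while Prc1, Espl1, Kif23 and Foxm1 lie above it in every exercise array. Kif23 in arrays 309 and 310 and Foxm1 in array 310 lie only just above it.

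Without exercise arrays 306, 309 and 310, which held hepatocyte transcripts, the picture leaned further to the exercise side. The changes of 34 of the 38 genes were then positive, with a median of 0.075, against a median of 0.01 over all genes. In this setting 9 of the 38 rose and 0 fell, where 3.78% of all genes rose and 8.09% fell. These were Prc1, Espl1 and Kif23, joined by Ccna2 (0.21), Kif11 (0.27), Kif2c (0.26), Kif20a (0.23), Anln (0.39) and Ect2 (0.27). Of the 6 midzone and cytokinesis genes 5 then passed, all but Racgap1. Foxm1 did not pass, at 0.16 (limma adjusted p = 0.126). This comparison rested on 2 exercise arrays, of which array 300 was the highest for most of these genes. Dropping exercise array 310 alone turned the 4 higher genes into 8, and dropping non-exercise array 327 or 329 into 2, while dropping array 300 gave 1 lower gene. Of all genes 5.31% rose without array 310, 4.83% without 327 and 4.57% without 329, and 8.64% fell without array 300.

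Other genes of the cell cycle machinery, 141 measured on 6 lists outside the 38, gave calls in both directions. Of these, 8 rose (5.67%) and 9 fell (6.38%), and the median log2 change was 0.00. The balance depended on scaling, with 5 higher and 11 lower in the table as deposited and 4 higher and 17 lower after centring on array medians. The shares of all genes moved as well. Of all genes 6.87% rose and 10.4% fell in the table as deposited, and 4.7% and 15.4% after centring. In the main setting the 5.67% and 6.38% of these genes lay below the shares of all genes, 6.35% and 10.6%. The largest change among those that passed was that of Gtse1, a G2 and S phase protein that binds microtubules and p53. It lay at 11.11, 10.94, 11.09, 10.85 and 10.71 in the exercise arrays and at 11.42, 11.54, 11.33, 11.49 and 11.26 in the others. All exercise arrays lay below all others, a log2 change of -0.47 ± 0.08, or 0.72-fold (SE; limma adjusted p = 0.00153).

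On the list of G1 and S phase regulators, Ccnd3 and E2f2 fell, Cdk6 and E2f6 rose, and 22 of 26 did not pass. Each direction made up 7.69% of the list, against 6.35% higher and 10.6% lower among all genes. Ccnd3, which encodes cyclin D3, lay at 11.32 to 11.62 in the exercise and 11.71 to 11.87 in the non-exercise arrays, a change of -0.28 ± 0.06 (limma adjusted p = 0.00509). Its relative Ccnd1 had a change of -0.03. E2f2, an activating E2F factor, changed by -0.27, E2f6, a repressor of the family, by 0.23, and Cdk6, a partner of D cyclins, by 0.23 (limma adjusted p 0.0194 to 0.0470). Of 17 G2 and mitosis regulators, Gtse1 fell and Ccnf rose (5.88% each), shares below those of all genes. Ccnf encodes cyclin F, a subunit of a ubiquitin ligase, and changed by 0.31 ± 0.07 with no overlap of the groups (limma adjusted p = 0.00912).

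Of 34 further kinetochore and spindle checkpoint genes, Nsl1 and Zwint rose (5.88%), Mis12 fell (2.94%) and 31 did not pass, shares below the 6.35% and 10.6% of all genes. Nsl1 and Mis12 encode subunits of one complex at the base of the kinetochore, and changed by 0.30 ± 0.06 (limma adjusted p = 0.00525) and -0.23 ± 0.07 (limma adjusted p = 0.0450). Zwint, a kinetochore protein gene, changed by 0.26 ± 0.05 (limma adjusted p = 0.00552).

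Of 21 genes of the anaphase-promoting complex (APC/C) and its partners, Ube2s, Anapc7 and Anapc13 fell and 0 rose, with 1 higher and 4 lower at an unadjusted p under 0.05 in limma. The 3 lower genes are 14.3% of the list, against 10.6% of all genes, and the 4 at an unadjusted p are 19%, against 18%. In the other direction 6.35% of all genes rose. The 1 higher gene at an unadjusted p is 4.76% of the list, against 11.2% of all genes. Ube2s encodes the enzyme that extends ubiquitin chains for the complex, and changed by -0.18 ± 0.04 (limma adjusted p = 0.0116). Anapc7 and Anapc13 encode subunits, and changed by -0.21 and -0.19 (limma adjusted p 0.0370 and 0.0488).

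Condensin and cohesin genes, 19 in number, gave 1 in each direction (5.26% each, against 6.35% higher and 10.6% lower among all genes). Ncapd3, a condensin II subunit gene, changed by 0.29 ± 0.06 (limma adjusted p = 0.00574), and Cdca5, which encodes the cohesin protector sororin, by -0.32 ± 0.07 (limma adjusted p = 0.00639). Both had groups without overlap. Of 24 further genes of motors, spindle and cytokinesis, Cit and Cep55 rose (8.33%) and Ckap2 fell (4.17%), against the same shares of all genes. Cit encodes citron kinase of the midbody and changed by 0.23, and Cep55, which recruits the factors that sever the midbody, by 0.22. Ckap2, a spindle protein gene, changed by -0.26 (limma adjusted p 0.0185 to 0.0422 for the 3).

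Of these 17 genes, 7 passed in every alternative tried, namely Gtse1, Ccnf, Ccnd3, Nsl1, Zwint, Ncapd3 and Cdca5. Cit lost its call without non-exercise array 326, and E2f2 without non-exercise array 327 or 329. Cdk6 lost it without array 300, 306, 309, 326, 327 or 329, Ckap2 without 306, 310, 326, 327, 329 or 330, and Anapc7 without 300, 309, 310, 326, 327, 329 or 330. Mis12 lost it without array 301, 306, 310, 326, 327, 329 or 330, and Anapc13 without any array but 301 or 309. E2f6 lost it without any array but 306, and Cep55 without any array but 310. Without exercise arrays 306, 309 and 310, Cdk6, E2f2, Mis12, Anapc13, Ube2s, Ckap2 and Cit did not pass. Centring on array medians ended the calls of Cdk6, E2f6, Cit and Cep55, at log2 changes of 0.14 to 0.15. The table as deposited ended those of Cdk6, E2f2, E2f6 and Cep55. Fitting without the intensity trend ended those of Ube2s, Mis12, Anapc7, Anapc13, Cdk6, E2f6 and Cep55, and the robust fit that of Anapc13. The adjusted p of these genes ran up to 0.349.

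**Figure D4:**
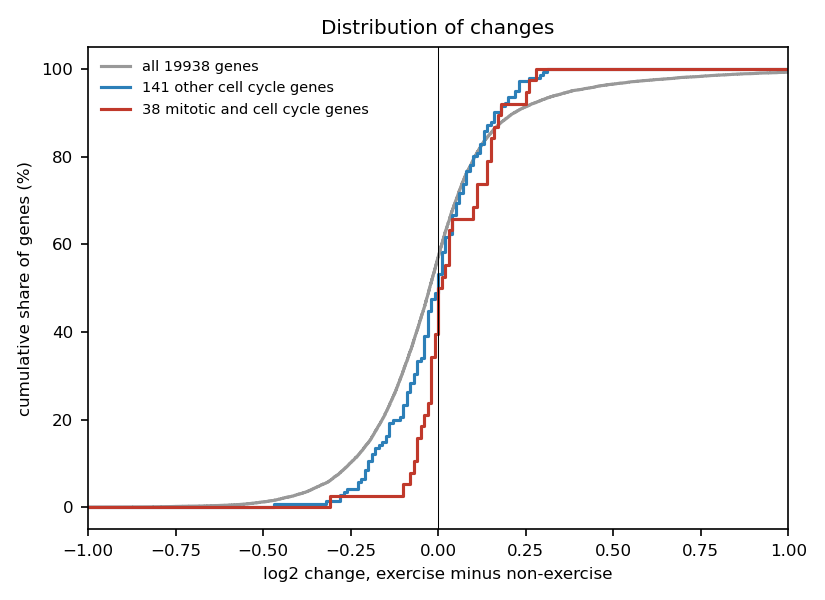
Cumulative share of genes (y axis, percent) by log2 change, exercise minus non-exercise (x axis), for all 19938 genes (grey), the 141 other cell cycle genes (blue) and the 38 mitotic and cell cycle genes (red). The red curve spans -0.31 to 0.28 and the blue curve -0.47 to 0.31, while the grey curve has longer tails on both sides, cut by the axis at 1 in either direction.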

How the data were processed

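RNA from 10 tumours was hybridised to Affymetrix whole-transcript arrays, 1 per tumour. The table holds 1 value per probe set that the authors deposited, taken as log2 because values run from 4.66 to 14.55; no source used here gives the base or any added constant. Per the submitters' processing notes the values come from PLIER, version not given in the sources used here. Array medians differed by 0.126, over the limit of 0.1 set in the design, so the table was quantile normalized (limma 3.58.1, R 4.3.3). Of 35556 probe sets 21789 had 1 gene symbol, 1621 had several and 12146 were unnamed here; names were checked by Entrez identifier against RefSeq GRCm38.p6 (21698 matched). The probe set with the highest mean stood for each of 999 genes with several. No dim genes were removed.

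The exercise effect was fitted with limma's lmFit and eBayes, trend on, in a two-sided test with Benjamini-Hochberg adjustment over 19938 genes at 0.05. No pair of arrays shared more than 1 value exactly. The code was tested on simulated data. Scan dates and slides were not analysed here as batches. All 38 measured genes are named, and on the other lists up to 4 genes past the threshold with the smallest p. Members and lists were chosen with earlier results of these data known, as was the alternative without 3 exercise arrays. The marker lists for endothelium, adipocytes, skeletal muscle and keratinocytes had 0, 1, 0 and 0 genes higher and 0 lower in the limma test. Hepatocyte markers had 2 of 15 higher and 0 lower, and melanocytic markers 0 of 8 either way. Figures used matplotlib 3.10.9 in Python 3.11.15.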

Additional observations from a re-analysis of the deposited data

Results flagged for a closer look

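Among the 38 genes and their median, each in both groups of 5 arrays, 78 groups of values were checked for an array that stands far from the others, and 3 were marked, where chance marks about 1 in 20. Ccnb2 lay at 12.76 in exercise array 310 while the next exercise array lay at 12.94, a gap of 0.76 of the whole range. Aurkb lay at 12.33 in the same array against 12.53 for the next, a gap of 0.75 of the range. Tpx2 lay at 10.79 in non-exercise array 330 against 10.98 for the next, a gap of 0.84 of the range.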

How the results depend on the processing

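The 4 higher and 0 lower genes of the 38 became 2 and 1 after centring arrays on their medians and 9 and 1 with array weights. Without exercise arrays 306, 309 and 310 they became 9 higher. Of all genes 4.7% rose and 15.4% fell with centring, 7.22% and 14.1% with array weights, and 3.78% and 8.09% without the 3 arrays. Leaving out 1 array gave 2 to 8 higher and 0 to 1 lower of the 38. Over all genes it gave 4.3% to 7.66% higher and 7.2% to 11.7% lower. The 8 higher and 9 lower other cell cycle genes became 4 and 17 with centring, and 5 and 5 without the trend. They became 5 and 11 in the table as deposited, and 11 and 14 with array weights. Of all genes 5.26% rose and 9.44% fell without the trend, and 6.87% and 10.4% in the table as deposited. Without the 3 arrays 5 of the other cell cycle genes were lower, where 8.09% of all genes fell. For these other genes, leaving out 1 array gave 4 to 12 higher and 4 to 13 lower, against the same ranges of all genes. Over all genes the 1266 higher became 753 without the 3 arrays, and 37.4% of calls were higher in the main setting against 23.4% with centring. The median change of the 38 genes ran from -0.077 with centring to 0.075 without the 3 arrays. Prc1 and Espl1 passed in all 18 alternatives. No called gene of the 38 changed direction, while 22 that passed in neither setting changed sign in some alternative, to values between -0.09 and 0.13. The cause of these shifts was not tested. Leaving out arrays also leaves fewer samples. No paired analysis was possible because the groups share no array numbers. A count of 5 arrays per group limits the precision.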
